A study of Homo sapiens with 4 samples.

Results

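The genes described here are those of the cilium, the centrosome and the microtubule cytoskeleton. They were chosen by symbol, as the families named CFAP, IFT, BBS, CEP, DNAH, DYNC, DYNLRB, TTLL, TTC, TUBA, TUBB, TUBG, TUBGCP, KIF, MAP1, MAP4, MAP7 and CLASP. They numbered 140 of the 9885 genes in the table, and all 140 were found in the GENCODE annotation of GRCh37. RNA-seq had been made from 4 human ovarian cancer cell lines, with 1 library for each line. The deposited table gives, for each gene and library, a whole number of events between 0 and 32. The kind of event and the program that counted it are not given in the sources used here, so a value is a number of events and not an expression level.

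The 4 lines share 1 origin. HeyA8 cells (A8), derived from the Hey ovarian cancer line, are the parental line. A8i cells are HeyA8 cells in which ECM1, a secreted extracellular matrix glycoprotein, was stably silenced by a lentiviral shRNA under puromycin selection. A8i-A and A8i-B cells are A8i cells that stably express the ECM1a or the ECM1b isoform from a cDNA, so that these 3 lines all carry the silencing construct. A8 and A8i differ by the virus and the selection as well as by ECM1, and A8i-A and A8i-B by a second vector from A8i, and these cannot be told apart from ECM1 in these libraries. All lines grew in RPMI1640 with 10% FBS. Because each line has 1 library, no difference below has a replicate check and none was tested. Every comparison is of libraries, not of conditions.

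Cilia are microtubule-based projections of the cell surface that grow from a centriole. Intraflagellar transport (IFT) trains, pulled outward by kinesin and back by dynein, carry building material along the ciliary microtubules, and the BBSome sorts membrane proteins for that traffic. The centrosome, built on the same centrioles, holds the γ-tubulin complexes that start new microtubules, and tubulin ligases of the TTLL family mark the finished polymer with added amino acids.

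Whole libraries differed in their totals, which ran from 20535 events in A8i to 24513 in A8, with 22691 in A8i-A and 24236 in A8i-B. The number of reads behind these totals is not known. ECM1 itself had 2 events in every library and thus gives no check of the labels. Of the epithelial ovarian cancer markers looked for, 7 of 10 were listed. PAX8 had 11, 7, 7 and 7 events in A8, A8i, A8i-A and A8i-B, and KRT8 had 7, 5, 5 and 6, whereas EPCAM was at 0 in all 4. KRT19, MUC16 and CDH1 were not listed. Of 6 mesenchymal and stromal markers, 3 were listed. FN1 had 9, 11, 10 and 11 events, VIM had 3, 1, 3 and 2, and COL1A1 had 1, 0, 1 and 1. The listed markers thus included epithelial and mesenchymal ones. None of 3 immune and none of 2 endothelial markers was listed. Of 5 markers of multiciliated epithelium only CAPS was listed, with 1 event or none per library, and FOXJ1, the master regulator of motile cilia, was not listed. A gene that is not listed was not shown to be silent. Here and below, event numbers are given in the order A8, A8i, A8i-A and A8i-B unless libraries are named.

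The 140 genes held 347, 329, 300 and 352 events. Those with at least 1 event numbered 115, 99, 109 and 118, which is 82.1%, 70.7%, 77.9% and 84.3%. Over all genes of the table the shares were 82.2%, 73.7%, 78.9% and 81.6%, so the cilium, centrosome and microtubule genes lay within 3.03 percentage points of the table in each library. The median gene had 2, 1, 1.5 and 1 events, against 2, 1, 1 and 2 over all genes. Most of the 140 genes therefore had few events, and the highest numbers, 21, 20, 13 and 21, came from only 2 genes, TTLL3 in A8 and CFAP54 in the other 3 libraries.

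CFAP54 and TTLL3 stood out from the remaining members in opposite ways. CFAP54, which encodes a protein of the central apparatus of motile cilia, had 5, 20, 13 and 21 events. It was low in the parental line and higher in each of the 3 lines that carry the ECM1 shRNA. The number in A8i was 4.0 times that in A8 (95% exact Clopper-Pearson interval 1.46 to 13.6), and that in A8i-B was 4.2 times that in A8 (1.54 to 14.3). The interval for A8i-A over A8, 2.6-fold (0.870 to 9.31), included equality, as did that for A8i-B over A8i-A, 1.62-fold (0.772 to 3.51). Only 9 of the 9885 genes had 20 or more events in A8i, CFAP54 among them. These intervals condition on the sum of the 2 numbers, take the events of a gene as independent of each other and cover counting error only, and they were not adjusted for picking out the most extreme of 140 genes. CFAP54 lies at chr12:96883349-97269333 of GRCh37 on the forward strand. Its annotation holds 9 transcripts, the longest of them with 68 exons, and no other annotated gene overlaps it.

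TTLL3, which encodes a glycylase that adds glycine to tubulin in axonemes, had 21, 9, 5 and 8 events. It was high in the parental line alone, and the 3 other libraries lay between 5 and 9. The fold of A8 was 2.33 over A8i (1.02 to 5.79), 4.2 over A8i-A (1.54 to 14.3) and 2.63 over A8i-B (1.12 to 6.85). The A8 library held 119% of the events of A8i over all genes, and TTLL3 no longer passed the 2-fold rule explained below for A8 vs. A8i once libraries were scaled to the mean total. In A8, only 8 genes of the table had 21 or more events. TTLL3 lies at chr3:9849770-9896822 on the forward strand, with 35 annotated transcripts. The readthrough gene ARPC4-TTLL3 overlaps it on the same strand and RPUSD3 on the opposite strand. Events in shared exons could be assigned to either gene, and how the counting treated them is not known. ARPC4-TTLL3 had 3, 0, 3 and 2 events and RPUSD3 had 3, 1, 2 and 2. Whether events of shared exons added to the numbers of TTLL3 was not tested.

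**Figure D1:**
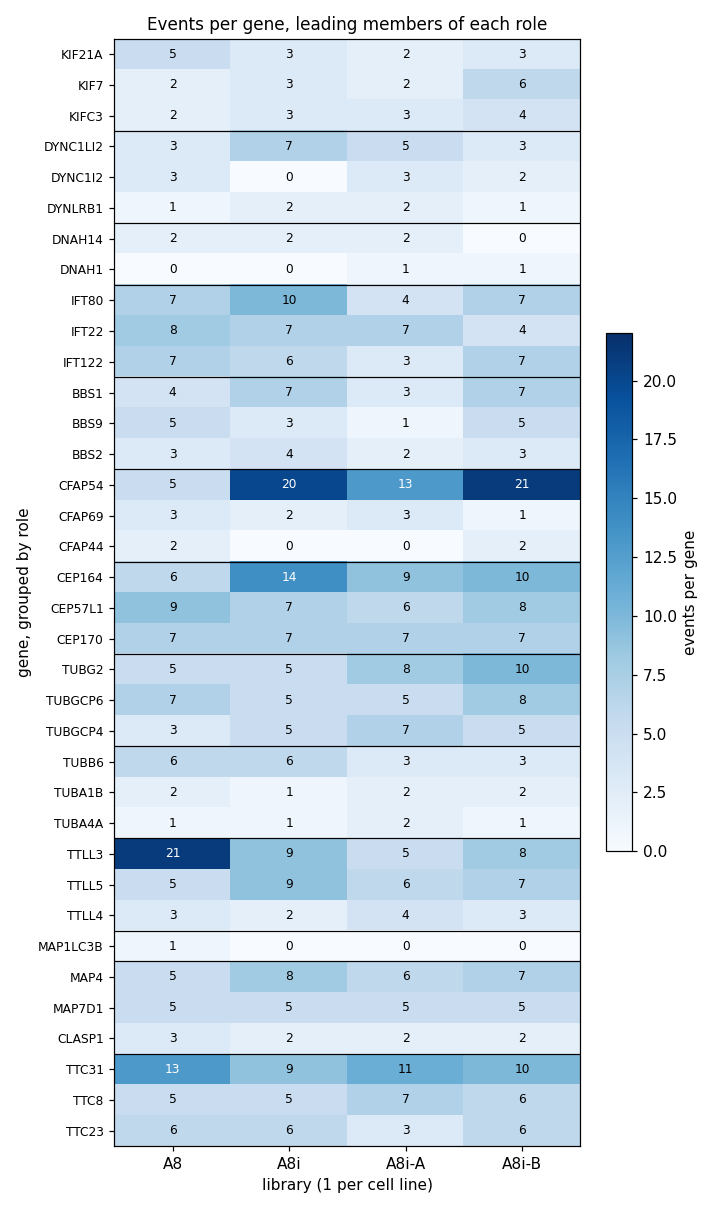
Events per gene (colour and printed number) in the 4 libraries for the members with the most events in each role, with lines between roles. TTLL3 with 21 events in A8 and CFAP54 with 20 in A8i and 21 in A8i-B are the darkest cells, and CEP170 and MAP7D1 keep 1 number, 7 and 5, across all 4 libraries.

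The 14 IFT genes held 49, 41, 37 and 38 events. IFT80, a subunit of the IFT-B complex that moves outward, had 7, 10, 4 and 7 events. It was highest in A8i and lowest in A8i-A, a difference of 2.5-fold with an interval of 0.721 to 10.9 that included equality. IFT172, the largest IFT-B subunit, had 2 events in A8 and 6, 5 and 6 in the 3 lines with the shRNA. IFT27, a small GTPase of IFT-B, had the opposite order, with 5 events in A8 and 1, 2 and 3 in the others. These 2 subunits of the same complex thus differed in opposite directions between A8 and A8i by the 2-fold rule explained below. By that rule 10.2% of all genes were higher and 3.46% were lower in A8 than in A8i. IFT22, also of IFT-B, had 8, 7, 7 and 4 events and was lowest in A8i-B. Of the IFT-A subunits, which act in the return traffic, IFT122 had 7, 6, 3 and 7 events, IFT140 had 2, 0, 2 and 2, and IFT43 had 2, 2, 2 and 0. IFT43 overlaps TTLL5 on the same strand. The IFT-B subunits IFT20, IFT46, IFT52, IFT81 and IFT88 stayed at 4 events or fewer, and IFT57 and IFT74 had 1 event at most. Another 2 IFT subunits have TTC symbols. TTC21B, of IFT-A, had 1 event in A8i-B and none elsewhere, and TTC26, of IFT-B, had 1 event in A8i and none elsewhere.

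The 6 BBS genes, which encode BBSome subunits, held 15, 18, 10 and 18 events, fewest in A8i-A. The total in A8i-A was 55.6% of that in A8i (22.9% to 127%) and, with the same numbers, of that in A8i-B. Over all genes these ratios were 110% and 93.6%, both within that interval. BBS1 had 4, 7, 3 and 7 events, and BBS2 had 3, 4, 2 and 3. BBS9 had 5, 3, 1 and 5 events, so that A8i-A lay below and A8i-B above A8i. BBS7 had 2 events in A8i and none in the others. BBS4 had 3, 2, 3 and 2, and BBS5 had 1 event in A8i-A and A8i-B only. TTC8, a BBSome subunit with a TTC symbol, had 5, 5, 7 and 6 events and was highest in A8i-A.

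Among the motors, the 25 KIF genes, which encode 24 kinesins and, as KIF1BP with 1, 0, 0 and 1 events, a kinesin-binding protein, held 36, 31, 31 and 38 events, with a median of 1 in each library, and 8 of the 25 had the same number in all 4 libraries. KIF21A, a kinesin that restrains microtubule growth, had 5, 3, 2 and 3 events. KIF7, a kinesin of the ciliary tip that takes part in Hedgehog signalling, had 2, 3, 2 and 6 and was highest in A8i-B. TICRR, which overlaps KIF7 on the opposite strand, had 1, 1, 1 and 4 and was also highest in A8i-B. Whether reads were counted by strand is not given in the sources used here. KIFC3 and KIFC2, of the minus-end-directed kinesin family, had 2, 3, 3 and 4 and 3, 1, 0 and 3 events. KIF3A, a subunit of the motor of outward IFT, had 1 event in each library, as did the mitotic kinesins KIF20A and KIF2C, and the mitotic KIF23 and KIF18B had 2 in each. KIF16B, which moves endosomes, was at 0 in A8 and A8i and had 2 events in A8i-A and 1 in A8i-B. KIF20B, which acts in cytokinesis, had 1, 0, 2 and 1.

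The 7 genes of cytoplasmic and ciliary dynein held 10, 13, 15 and 10 events. A pair of subunits of cytoplasmic dynein went opposite ways between A8 and A8i. DYNC1I2, an intermediate chain, had 3, 0, 3 and 2 events and was at 0 in A8i alone. DYNC1LI2, a light intermediate chain, had 3, 7, 5 and 3 and was highest in A8i. DYNLRB1, a light chain, had 1, 2, 2 and 1. DYNC2H1, the heavy chain of the motor for the return traffic in cilia, had 1, 0, 1 and 1. Axonemal dynein was represented by DNAH14, with 2, 2, 2 and 0 events, and DNAH1, with 0, 0, 1 and 1. Of the other 5 CFAP genes, CFAP69 had 3, 2, 3 and 1 events, CFAP44 had 2, 0, 0 and 2, and CFAP57 had 2 in A8 and none elsewhere. CFAP20 did not exceed 1 event, and CFAP36 was at 0 in every library. The 6 CFAP genes held 12, 22, 17 and 25 events, of which CFAP54 made up most in every library but A8.

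The 30 CEP genes, the largest family, held 76, 85, 76 and 88 events. CEP164, a distal appendage protein of the mother centriole that is needed to start a cilium, had 6, 14, 9 and 10 events, lowest in A8 and highest in A8i. The fold of A8i over A8 was 2.33 with an interval of 0.842 to 7.41. CEP164 lies at chr11:117185273-117283982 on the forward strand, where BACE1, with 2, 2, 4 and 3 events, overlaps it on the other strand. CEP192, which gathers pericentriolar material before mitosis, had 4, 8, 5 and 5. CEP152, which brings the kinase for centriole duplication to the centriole, was at 0 in A8 and had 4, 4 and 2 events in the other libraries. These 3 genes were lowest in A8, and CEP57 and CEP95, with 3, 4, 7 and 4 and with 4, 6, 6 and 6 events, were lowest there too.

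Other CEP genes were at 0 in A8i. CEP290, a protein of the ciliary transition zone, had 2, 0, 2 and 2 events. CEP295, which turns new centrioles into centrosomes, had 4, 0, 1 and 5, and CEP85 had 2, 0, 1 and 5. In these 3 genes A8i was the lowest library, and in the latter pair A8i-B was the highest. A count of 0 allows an expected number of up to 3 events, so none of these genes was shown to lack events in A8i. TAF1D, which overlaps CEP295 on the opposite strand, had 11, 7, 10 and 9. CEP126 had 3 events in A8 only. CEP83, a distal appendage protein like CEP164, had 3, 5, 1 and 1, and CEP97, which caps centrioles and keeps cilia from forming, had 1, 4, 2 and 1, so that both were highest in A8i. CEP44 had 0, 2, 0 and 3. CEP57L1 had 9, 7, 6 and 8, and CEP170, of the subdistal appendages, had 7 in every library.

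The 6 γ-tubulin complex genes held 18, 17, 25 and 30 events, more in the isoform lines than in A8 and A8i. The total in A8i-B was 176% of that in A8i, with an interval of 94.2% to 341% that included the 118% over all genes. That in A8i-A was 147% (76.3% to 290%), beside 110% over all genes. TUBG2, a γ-tubulin, had 5, 5, 8 and 10 events, and TUBG1, its near-identical paralogue, had 1, 0, 1 and 3. Both were highest in A8i-B, but reads shared between the paralogues may be split between them in a way the sources do not give. TUBGCP4 and TUBGCP6, which belong to the γ-tubulin ring, had 3, 5, 7 and 5 and 7, 5, 5 and 8 events, TUBGCP5 had 1, 1, 3 and 3, and TUBGCP2 had 1 in each library. Of the 5 α- and β-tubulin genes, which hold near-identical copies and are therefore uncertain, TUBB6 had 6, 6, 3 and 3 events, TUBA1B had 2, 1, 2 and 2, TUBA4A had 1, 1, 2 and 1, TUBA1A had 1 in each, and TUBB3 had 1 in A8i-B only.

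Apart from TTLL3, the TTLL genes did not follow its order. TTLL5, which adds glutamate to tubulin, had 5, 9, 6 and 7 events, lowest in A8, and TTLL4, of the same activity, had 3, 2, 4 and 3. Among the microtubule-associated proteins, MAP4, which stabilises microtubules in most cell types, had 5, 8, 6 and 7 events, MAP7D1 had 5 in every library, and the plus-end proteins CLASP1 and CLASP2 had 3, 2, 2 and 2 and 2, 0, 1 and 2. MAP1LC3B, which the rule took in by its symbol and which acts in autophagosomes, had 1 event in A8 and none elsewhere.

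The 26 TTC genes share a tetratricopeptide repeat, a module for protein contacts, and many of them have no known place at the cilium. They held 70, 55, 45 and 58 events. TTC31 had 13, 9, 11 and 10 events, highest in A8, and TTC23 had 6, 6, 3 and 6. TTC3, a ubiquitin ligase, was at 0 in A8i-A and had 5, 5 and 4 in the other libraries. TTC7A, a partner of a phosphatidylinositol kinase, had 6, 4, 3 and 1, and TTC14 and TTC38 had 4, 6, 2 and 4 and 2, 1, 3 and 4. TTC28-AS1, an RNA antisense to TTC28 and the only member that is not protein-coding, had 4, 1, 0 and 0 events. TTC28 itself had 1 event in A8i-A only.

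**Figure D2:**
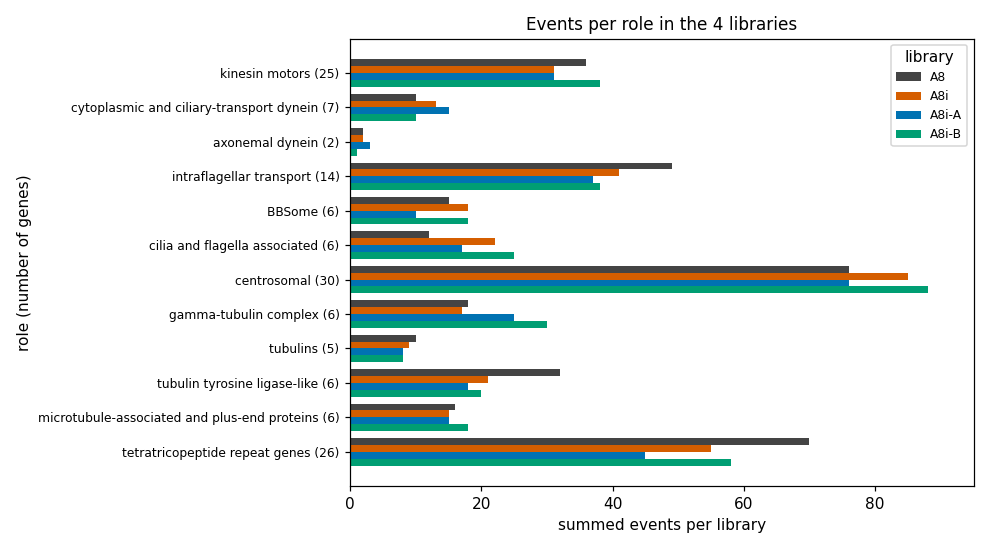
Summed events of each role (horizontal axis) in the 4 libraries, with the number of genes in parentheses. A8 is the longest bar for the TTLL genes (32) and the TTC genes (70), A8i-A is the shortest for the BBSome genes (10), and A8i-B is the longest for the γ-tubulin complex (30).

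To count differences in the same way for every gene, a gene was called higher or lower where the number of events plus 1 differed at least 2-fold and the numbers themselves were at least 2 events apart. The same rule over all 9885 genes gave the background. It rests on libraries of unequal total, and event numbers were also compared after scaling each library to the mean total. Medians of the log2 ratio were 0 over the 140 genes and over all genes in each of the 4 pairs of libraries.

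Silencing of ECM1 is addressed by A8 vs. A8i cells. A8 was ahead of A8i in 55 of the 140 genes (39.3%, against 38.5% of all genes) and behind in 29 (20.7%, against 19.7%). The other 56 were equal. By the 2-fold rule, 15 genes (10.7%) were higher in A8 than in A8i, against 10.2% of all genes. Another 8 (5.71%) were lower in A8, against 3.46% of all genes. The higher genes were CEP85, CEP126, CEP290, CEP295, CFAP44, CFAP57, CLASP2, DYNC1I2, IFT27, IFT46, IFT140, KIFC2, TTC28-AS1, TTC33 and TTLL3. The lower ones were BBS7, CEP44, CEP97, CEP152, CEP164, CFAP54, DYNC1LI2 and IFT172. After scaling to the mean total, 5 genes remained higher, namely CEP126, CEP295, DYNC1I2, IFT27 and TTC28-AS1, and 9 were lower, which were the same 8 and CEP192, against 4.18% and 3.79% of all genes. TTLL3 was not among the higher genes after scaling. CEP192, at 4 and 8 events, lay just below the limit on the raw numbers.

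The summed events of the 140 genes in A8 were 105% of those in A8i (90.4% to 123%), where the ratio over all genes was 119% (117% to 122%). Without CFAP54 the ratio was 111% (94.6% to 130%). Over the 83 genes that had events in every library it was 96.0% (81.5% to 113%). None of these 3 intervals excluded 100%. Those over all 140 genes and without CFAP54 included the ratio over all genes. The 83 genes were picked for events in every library, and no ratio over all genes picked in that way was taken for them.

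**Figure D3:**
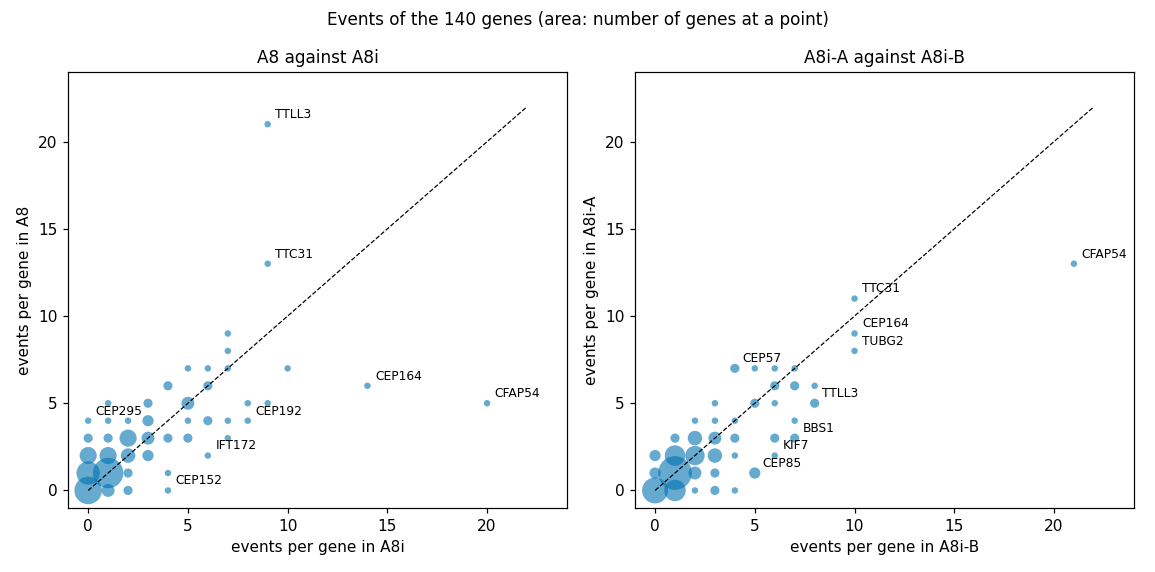
Events per gene in A8 against A8i (left) and in A8i-A against A8i-B (right) for the 140 genes, with the dashed line of equal numbers and the area of a point giving the number of genes there. CFAP54 lies at 20 and 5 and TTLL3 at 9 and 21 in the left plot, on either side of the line, and most genes lie at 3 events or fewer.

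Return of the isoforms is addressed by A8i-A and A8i-B vs. A8i, which share the A8i library as their baseline, so that a low or high number in A8i moves both. A8i-A was ahead of A8i in 42 of the 140 genes (30%, against 33.6% of all genes) and behind in 39 (27.9%, against 23.3%). The other 59 were equal. By the 2-fold rule 7 genes (5%) were higher, against 8.35% of all genes, and 9 (6.43%) were lower, against 4.82%. The higher genes were CEP290, DYNC1I2, IFT140, KIF16B, KIF20B, TTC38 and TUBGCP5. The lower genes were BBS1, BBS7, BBS9, CEP44, CEP83, IFT80, TTC3, TTC12 and TTC14. They included 3 of the 6 BBS genes, and IFT122, at 3 and 6 events, lay just outside the limit. The total over the 140 genes was 91.2% of that in A8i (77.7% to 107%), beside 110% (108% to 113%) over all genes. The interval of the 140 genes lay below the table's ratio. Without CFAP54 the ratio of totals was 92.9% (78.8% to 109%). These intervals take events as independent of each other and cover counting error only, so they are no test between sets of genes. In each other pair of libraries the interval of the 140 genes included the table's ratio.

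A8i-B was ahead of A8i in 54 genes (38.6%, against 38.0% of all genes) and behind in 35 (25%, against 20.2%). The other 51 were equal. The 2-fold rule gave 12 higher genes (8.57%), against 10.7% of all genes, and 8 lower genes (5.71%), against 3.96%. The higher genes were CEP85, CEP290, CEP295, CFAP44, CLASP2, DYNC1I2, IFT27, IFT140, KIFC2, TTC38, TUBG1 and TUBGCP5, and TUBG2, at 10 and 5 events, was just outside. The lower genes were BBS7, CEP83, CEP97, DNAH14, DYNC1LI2, IFT43, TTC7A and TTC12. Scaling to the mean total left 4 higher genes, CEP85, CEP295, TTC38 and TUBG1, and 9 lower genes, against 4.05% and 4.25% of all genes. The total was 107% of that in A8i (91.8% to 125%), beside 118% (116% to 120%) over all genes.

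Side by side, 7 genes at 0 in A8i were higher than A8i by the rule in more than 1 of the other libraries, all through that 0, which is 5% of the 140 genes against 3.38% of all genes. After scaling, 2 of them, CEP295 and DYNC1I2, were still so (1.43%, against 1.47% of all genes), and CFAP44 and CLASP2 were higher in none. DYNC1I2, CEP290 and IFT140 had 2 or 3 events in each of A8, A8i-A and A8i-B. The other 4, CEP85, CEP295, CFAP44 and CLASP2, passed the rule in A8 and A8i-B and had 1 event or none in A8i-A. In all, 11 of the 140 genes (7.86%) were at 0 in A8i and in no other library, against 5.58% of all genes. A further 7 (5%) were at 0 in A8 and A8i with an event in both A8i-A and A8i-B, against 2.12% of all genes. These were BBS5, CEP55, CFAP20, DNAH1, IFT57, KIF16B and MAP7D3, and KIF16B alone among them reached 2 events.

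**Figure D4:**
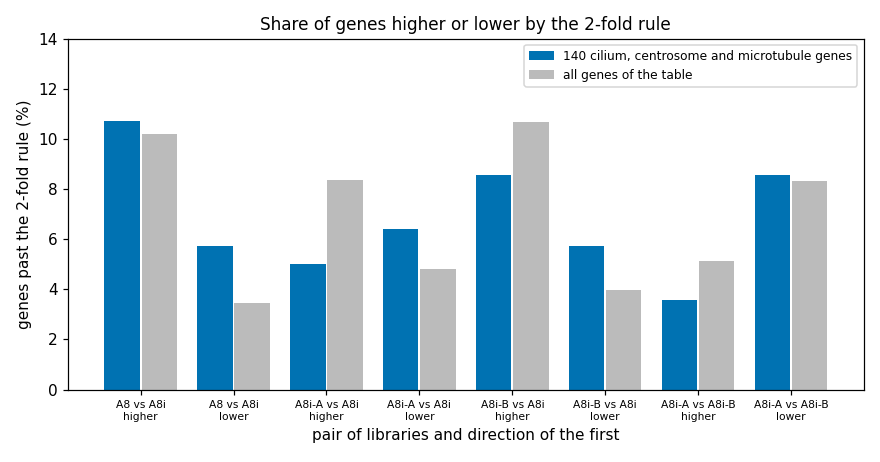
Share of genes (vertical axis, percent) past the 2-fold rule in each pair of libraries and direction, for the 140 genes (blue) and for all genes of the table (grey). The 140 genes run from 3.57% to 10.7% and the table from 3.46% to 10.7%, and the blue bar is the taller one for genes lower in A8, A8i-A or A8i-B than in A8i and, by less, for genes higher in A8 than in A8i and lower in A8i-A than in A8i-B.

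The isoforms are compared by A8i-A vs. A8i-B. A8i-A was ahead in 31 genes (22.1%, against 25.0% of all genes) and behind in 47 (33.6%, against 32.4%). The other 62 were equal. By the 2-fold rule 5 genes (3.57%) were higher in A8i-A, against 5.13% of all genes, namely CFAP69, DNAH14, IFT43, IFT52 and TTC7A. Another 12 (8.57%) were lower, against 8.31%, namely BBS1, BBS9, CEP44, CEP85, CEP295, CFAP44, IFT122, KIF7, KIFC2, TTC3, TTC9C and TUBG1. TTC23, at 3 and 6 events, lay just outside. After scaling, the same 5 genes were higher, and 7 were lower, against 5.14% and 3.2% of all genes. The total in A8i-A was 85.2% of that in A8i-B (72.8% to 99.7%), beside 93.6% (91.9% to 95.3%) over all genes. The interval of the 140 genes included the table's ratio. Without CFAP54 the ratio was 86.7%, with an interval of 73.8% to 102% that reached past 100%.

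**Figure D5:**
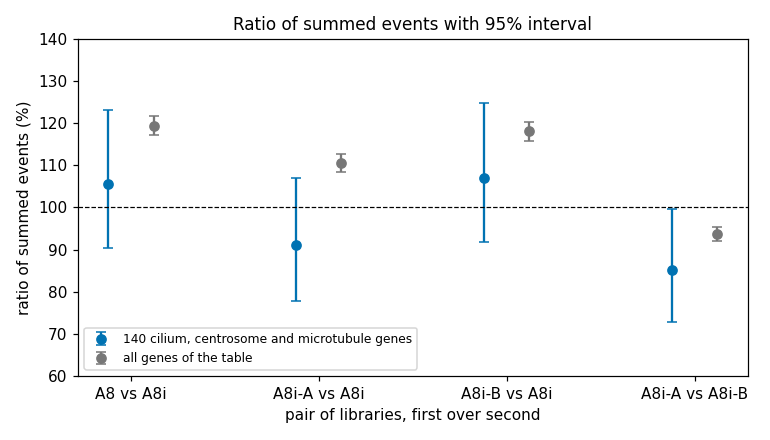
Ratio of summed events (vertical axis, percent) for each pair of libraries, first over second, for the 140 genes (blue) and all genes (grey), with 95% exact Clopper-Pearson intervals. The blue point lies below the grey one in all 4 pairs, at 105% against 119% for A8 vs. A8i and at 91.2% against 110% for A8i-A vs. A8i.

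Taking all 4 libraries together, 17 of the 140 genes (12.1%) had the same number in each, against 15.3% of all genes, and CFAP36, KIF15 and TTC27 were at 0 in all. Events in every library were found for 83 (59.3%), against 60.6% of all genes. A8 was above each other library in 27 genes (19.3%, against 16.6%) and below each in 12 (8.57%, against 6.02%). A8i was above each other library in 16 (11.4%, against 8.87%) and below each in 19 (13.6%, against 14.6%). A8i-A was below each other library in 17 (12.1%, against 9.07%) and above each in 12 (8.57%, against 12.6%). A8i-B was above each other library in 20 (14.3%, against 16.2%) and below each in 10 (7.14%, against 6.17%). The genes with A8 lowest were CEP57, CEP95, CEP152, CEP164, CEP192, CFAP54, DYNC1LI1, IFT172, KIFC3, MAP4, TTLL5 and TUBGCP4, 5 of them of the CEP family.

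The 140 genes were larger in the annotation than the table as a whole. Their median was 17.5 exons and 4827.5 nt for the longest transcript, with 12 annotated transcripts, against 9 exons, 3851.5 nt and 9 transcripts over the 9818 annotated genes. Across the 140 genes, the mean event number went with the number of annotated transcripts (Pearson's r = 0.16, Spearman's rho = 0.36), as it did over all genes (0.37 and 0.47). It had no such relation to the number of exons (0.037 and 0.002) or to length (0.026 and -0.014). These are descriptions across genes that share the same libraries, and genes are not independent replicates. Among the 70 genes with shorter transcripts the total in A8 was 105% of that in A8i, and among the 70 with longer transcripts it was 106%. For A8i-A vs. A8i the ratios were 96.7% (76.6% to 122%) and 86.4% (69.2% to 108%), and the interval of the shorter genes included the 110% over all genes. Another annotated gene overlapped 108 of the 140, and a protein-coding one overlapped 55, on the same strand for 13.

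A sequence shared by many of these genes lies in their promoters. The X-box, bound by RFX factors, is a known element of cilium genes, and its core was searched as GTTGCC or, on the other strand, GGCAAC in RefSeq promoter windows of GRCh38.p14 that reach from 250 bases before to 50 bases after a start site. Of the 140 genes, 124 had a window, and 41 of these (33.1%) held the core, against 17.5% of the 7335 genes of the table with a window and 14.6% of all 27305 genes. Over windows in place of genes, 28.0% of 157 held it against 12.2% of 35116. By family, it was in 6 of 13 IFT genes, 9 of 26 CEP genes and 1 of 5 CFAP genes, but also in 6 of 24 TTC genes and 3 of 5 TTLL genes. The IFT, BBS, CFAP, DNAH and CEP genes together held it in 19 of 51 (37.3%). The other members held it in 22 of 73 (30.1%), so the core was not confined to the first set. A match is a description of the letters and no evidence of binding, no test was made, and the motif was chosen with the event numbers known. Stretches upstream of the start are shown with the core in capitals, on the gene's own strand. Only cores with 20 bases on each side within the 250 bases before the start were taken. Cores nearer the start or the edge of the window are therefore not shown. The stretches are from the 3 such genes of the IFT and CEP families that were higher in A8 than in A8i. DNAH1, the only member with paired cores 2 bases apart, is also shown.
CEP126, chr11:101914877-101914922 (+): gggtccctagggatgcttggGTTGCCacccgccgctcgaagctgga
IFT27, chr22:36776135-36776180 (-): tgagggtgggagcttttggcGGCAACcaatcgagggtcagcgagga
IFT46, chr11:118566102-118566147 (-): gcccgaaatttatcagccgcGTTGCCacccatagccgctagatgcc
DNAH1, chr3:52316194-52316247 (+): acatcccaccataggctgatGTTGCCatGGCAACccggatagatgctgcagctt

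CEP126 (3, 0, 0 and 0 events), IFT27 (5, 1, 2 and 3) and IFT46 (3, 1, 1 and 1) were highest in A8, whereas DNAH1 (0, 0, 1 and 1) was at 0 in A8. CEP126, IFT27 and IFT46 had been picked for being higher in A8 than in A8i. CEP41, CEP57, CEP85L, CEP89, CEP112 and IFT74 also hold the core upstream and were not higher in A8 than in A8i by the 2-fold rule. CFAP36, KIF15 and TTC1 also hold the core, and they were at 0, at 0 and at 1 in every library. The core was thus found beside differing numbers and beside constant ones.

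Genes of the same structures that the symbol rule leaves out were described from a list of 107, of which 93 were in the table. They held 260, 249, 237 and 276 events. By the 2-fold rule 6 (6.45%) were higher in A8 than in A8i, against 10.2% of all genes, and 6 (6.45%) were lower, against 3.46%. In A8i-A vs. A8i, 7 (7.53%) were higher, against 8.35%, and 5 (5.38%) were lower, against 4.82%. In A8i-B vs. A8i, 12 (12.9%) were higher, against 10.7%, and 4 (4.30%) were lower, against 3.96%. In A8i-A vs. A8i-B, 6 (6.45%) were higher, against 5.13%, and 13 (13.98%) were lower, against 8.31%. The ratios of totals for these 4 pairs were 104% (87.4% to 125%), 95.2% (79.3% to 114%), 111% (93.1% to 132%) and 85.9% (71.9% to 103%). Each of these intervals included the ratio over all genes. For A8i-A vs. A8i that of the 140 genes did not, but the intervals cover counting error only and are no test. HAUS2, a subunit of the augmin complex that branches spindle microtubules, had 4, 11, 4 and 4 events. PCNT and CDK5RAP2, scaffold proteins of the pericentriolar material, had 2, 7, 5 and 2 and 3, 8, 5 and 5. All 3 were highest in A8i, as CEP164 and CEP192 were. PCM1 and OFD1 of the same list, with 5, 4, 6 and 7 and with 4, 2, 3 and 5 events, were lowest in A8i. A8i was above each other library in 11.4% of the 140 genes, against 8.87% of all genes. That share was not taken over the 93 genes of the list. MAPT, which encodes tau, had 4 events in A8 only, and NPHP4, of the transition zone, had 6, 3, 9 and 2. The genes named in this paragraph were chosen after their values were seen.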

How the data were processed

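RNA from HeyA8-derived lines (1 library each) was sequenced by the authors as paired-end reads on an Illumina HiSeq instrument. Their methods name Trim Galore, FastQC, TopHat with hg19 and Cufflinks (2.2.1 per the labels), whereas the labels give GRCm38, a mouse build, for these human cells; which build the table used could not be settled. The deposited table holds whole numbers of events per gene, a value of another kind than read counts, FPKM or expression levels; no scaling by the authors is evident, since totals differ. The 140 members, their roles, the lists and tests were chosen with earlier results of these data known. No test was possible with 1 library per line. Genes were called by the 2-fold rule, on (events + 1) and at least 2 events apart, and totals compared with 95% exact Clopper-Pearson intervals conditional on their sum (scipy 1.17.1, pandas 2.3.3, Python 3.11.15), after tests on simulated data. Named were the 3 members with most events per role, the 6 highest and 6 lowest per pair, those constant at 3 or more, and those nearest the limit; other members were named after their values were seen. Annotation was GENCODE 44 lifted to GRCh37, and promoters were from RefSeq. Left unused were 0 columns.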

Additional observations from a re-analysis of the deposited data

Results flagged for a closer look

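BBS9, a BBSome subunit, had 3 events in A8i cells, against 1 in A8i-A and 5 in A8i-B. It stood out because the isoform lines lay on opposite sides of their shared baseline, with a difference from A8i of -2 events in A8i-A and of 2 events in A8i-B. With 1 library per line the difference between them was not tested.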

How the results depend on the processing

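No paired analysis was possible because each line has 1 library, and for the same reason no library could be left out. Of 64 alternative values for 16 results, 39 stayed within 1.5 times the count or within the interval of the ratio, 24 moved and 1 reversed. On whole numbers a pseudocount of 0.5 gives the same rule as 1, so it could not move the 8 counts of higher and lower genes. These 8 are among the 39 values that stayed and are no check of the rule. Scaling to the mean total moved the higher genes from 15 to 5 in A8 vs. A8i and from 12 to 4 in A8i-B vs. A8i, and the lower genes from 12 to 7 in A8i-A vs. A8i-B. With no minimum difference in events, the higher genes were 28, 22 and 32 in A8, A8i-A and A8i-B against A8i and 8 in A8i-A against A8i-B, and the lower genes 16, 14 and 23 in the last 3. At least 3 events apart gave 6, 1, 4 and 0 higher genes in these pairs, and 5 and 4 lower genes in A8i-A and A8i-B vs. A8i. Among the 83 genes that had events in every library the higher genes were 3, 2, 3 and 2, and the lower genes 5 in each pair but A8i-A vs. A8i, since fewer genes were counted. The ratio of totals over those 83 genes was 96.0% for A8 vs. A8i and 97.4% for A8i-B vs. A8i, on the other side of 100% from 105% and 107%, whose intervals included 100%. The number of genes with an event in A8i-B less that in A8i was 19, and with at least 2 events 6. For A8i-A less A8i-B it was -9, and with at least 2 events it reversed to 2. The cause of these shifts was not tested. CFAP54 and TTLL3 were left out as alternatives chosen after seeing the data, and without TTLL3 the ratio for A8 vs. A8i was 102%. With a median of 1 to 2 events per gene, differences of 1 or 2 events could not be told from counting error.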
